A study of Homo sapiens with 38 samples.

Results

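The HOXC and HOXD genes described here are HOXC4, HOXC5, HOXC6, HOXC8, HOXC9, HOXD1, HOXD3, HOXD4, HOXD8 and HOXD9. They were taken by symbol from a table of 43412 gene symbols, and all 10 were found, 5 in each cluster. HOX genes encode homeodomain transcription factors that give cells their position along the body axis. They lie in 4 clusters (HOXA to HOXD), and in the embryo the genes at the 3′ end of a cluster (low numbers) are usually switched on earlier and further forward than those towards the 5′ end (high numbers). In pluripotent cells the clusters are held silent by Polycomb proteins, and Wnt signals, CDX factors and retinoic acid are known inducers.

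The data are total RNA sequencing of H9, an established human embryonic stem cell line, under 3 ways of raising Wnt/beta-catenin signalling. CHIR99021 (10 µM), an inhibitor of the kinase GSK3, was given to H9 for 0, 8, 16, 24, 48 and 72 h. Recombinant Wnt3a protein (240 ng/ml) was given to H9 for 0, 8, 24, 48, 72, 96 and 120 h. The third arm, called bcat here, is H9 with a stably integrated, doxycycline-regulated deltaN90 mutant of beta-catenin, a form that resists breakdown, induced with doxycycline (1 µg/ml) for 0, 8, 16, 24, 48 and 72 h. Which promoter drives the transgene, and if the line is 1 clone, is not given in the sources used here. At the start of treatment every arm also went from mTeSR1 to RPMI1640 with B27 lacking vitamin A, and the 3 arms hold no library of cells given the new medium alone, so time in that medium and the treatment cannot be told apart within an arm. The labels give 2 biological replicates (r1 and r2) in each of 19 groups. The 2 Wnt3a 72 h columns were identical in all 43412 genes and were counted as 1 library, which leaves 37. Nothing in the labels says that replicates were separate cultures, so p-values measure the spread between these libraries.

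Library totals ran from 2.45 M to 65.7 M estimated counts (median 18.99 M). Levels are CPM, counts per M counts of the library, with library sizes scaled by the TMM method. Ribosomal RNA took a median of 5.13% of counts, but 34.0% in bcat 0 h r1, 60.3% in bcat 24 h r1 and 60.2% in bcat 48 h r2, and Wnt3a 0 h r1 was the shallowest library. These 4 libraries are the ones doubted below. Ribosomal RNA also differed by arm. It ran from 5.77% to 60.3% in bcat libraries, 1.71% to 18.8% with CHIR99021 and 0.419% to 4.94% with Wnt3a. The comparisons between arms were not adjusted for it. CTNNB1, the gene for beta-catenin, was higher in induced bcat cells from 8 h (log2 change 2.00 ± 0.10, standard error) to 72 h (1.68 ± 0.10). AXIN2, a direct Wnt target, stood at 20.1 to 24.7 CPM at 0 h in the 3 arms. At 48 h it reached 349 ± 46.2 CPM with CHIR99021, 292 ± 3.53 in bcat and 39.4 ± 2.15 with Wnt3a (mean ± SD, n = 2 libraries each).

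In GENCODE 29 (GRCh38) all 10 members are protein-coding and on the plus strand, HOXC on chromosome 12 and HOXD on chromosome 2. From the 3′ end, HOXC4 spans chr12:54016931-54056030, HOXC5 chr12:54032853-54035358, HOXC6 chr12:53990624-54030823, HOXC8 chr12:54009106-54012362 and HOXC9 chr12:53994895-54003337. In the same order HOXD1 spans chr2:176188579-176190907, HOXD3 chr2:176136612-176173102, HOXD4 chr2:176151222-176153226, HOXD8 chr2:176129694-176132695 and HOXD9 chr2:176122720-176124937. Long transcripts make members overlap: HOXC4 spans HOXC5, HOXD3 spans HOXD4, and HOXC4 and HOXC6 share 484 exonic bases, so the split of reads between HOXC4 and HOXC6 is uncertain. HAGLR, a long noncoding RNA, lies on the minus strand at chr2:176164051-176188958, against the start of HOXD1. Whether the counting used strand is not given in the sources used here.

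RefSeq start sites on GRCh38.p14 were found for 6 of the 10 members, in 5 distinct windows of 300 bases, since HOXC4 and HOXC5 share a start. The 250 bases before 4 of these starts are printed because they belong to the 2 leading genes of the response (HOXC4, HOXD1), the late HOXD4 and the barely transcribed HOXD8. Capitals mark a match to a CDX motif, searched as TTTATG and TTTATTG on both strands. The windows are chr12:54016638-54016887 for HOXC4 and HOXC5, chr2:176188418-176188667 for HOXD1, chr2:176151300-176151549 for HOXD4 and chr2:176129455-176129704 for HOXD8, all on the plus strand.
HOXC4 and HOXC5: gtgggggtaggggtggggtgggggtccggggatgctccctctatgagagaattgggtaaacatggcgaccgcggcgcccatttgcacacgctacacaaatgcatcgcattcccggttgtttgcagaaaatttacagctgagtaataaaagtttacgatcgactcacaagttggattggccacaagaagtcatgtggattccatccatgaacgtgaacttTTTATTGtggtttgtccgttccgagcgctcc
HOXD1: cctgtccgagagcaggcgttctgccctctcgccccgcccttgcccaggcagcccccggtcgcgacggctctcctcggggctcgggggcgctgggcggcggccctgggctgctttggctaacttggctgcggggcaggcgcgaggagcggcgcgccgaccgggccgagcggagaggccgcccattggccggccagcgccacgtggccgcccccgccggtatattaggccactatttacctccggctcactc
HOXD4: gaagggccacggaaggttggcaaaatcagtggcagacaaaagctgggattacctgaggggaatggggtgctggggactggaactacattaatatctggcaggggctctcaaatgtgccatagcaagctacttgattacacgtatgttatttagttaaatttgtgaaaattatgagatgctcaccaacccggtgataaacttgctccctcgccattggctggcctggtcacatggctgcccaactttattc
HOXD8: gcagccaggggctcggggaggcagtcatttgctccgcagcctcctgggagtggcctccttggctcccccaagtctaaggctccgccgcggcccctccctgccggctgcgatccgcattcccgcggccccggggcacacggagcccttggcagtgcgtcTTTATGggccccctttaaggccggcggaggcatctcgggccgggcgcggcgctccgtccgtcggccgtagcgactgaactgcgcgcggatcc
A CDX match lay 31 bases before the RefSeq start shared by HOXC4 and HOXC5 and 92 bases before the HOXD8 start. No member's 300-base window held a TCF/LEF motif, searched as CTTTGAA or CTTTGAT or CTTTGTA or CTTTGTT on both strands. Of 34943 promoter windows of that length, 13.8% held a CDX match and 13.8% a TCF/LEF match. CG pairs numbered 15 in the HOXC4/HOXC5 window, 36 in that of HOXD1, 25 in that of HOXD3, 4 in that of HOXD4 and 34 in that of HOXD8, against a median of 14 over all windows. The HOXD1 window overlaps a HAGLR window by 195 bases.

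At 0 h the clusters were close to silent. Over the CHIR99021, Wnt3a and bcat 0 h libraries no member had more than 1 count in any library. Silence also limits the tests: 6 members (HOXC4, HOXC5, HOXC6, HOXD1, HOXD3, HOXD4) had enough counts to be among the 24304 genes tested, and the other 4 are given as counts. The 6 passed that filter through the groups where they were high, so their counts of calls describe them and do not stand for all 10. A gene is called changed where edgeR's quasi-likelihood test gave an adjusted p below 0.05 (Benjamini-Hochberg over all genes tested). At 0 h edgeR called none of the 6 different between arms, with none at an unadjusted p under 0.05 and none called by DESeq2. With at most 1 count a library these tests could hardly give a call, so they do not show equal levels. A count of 0 in a 0 h group sets a limit of 0.235 CPM in bcat, 0.0559 with CHIR99021 and 0.0421 with Wnt3a. Where the base is 0 counts, a fold is a lower bound taken against 3 counts over the group.

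**Figure D1:**
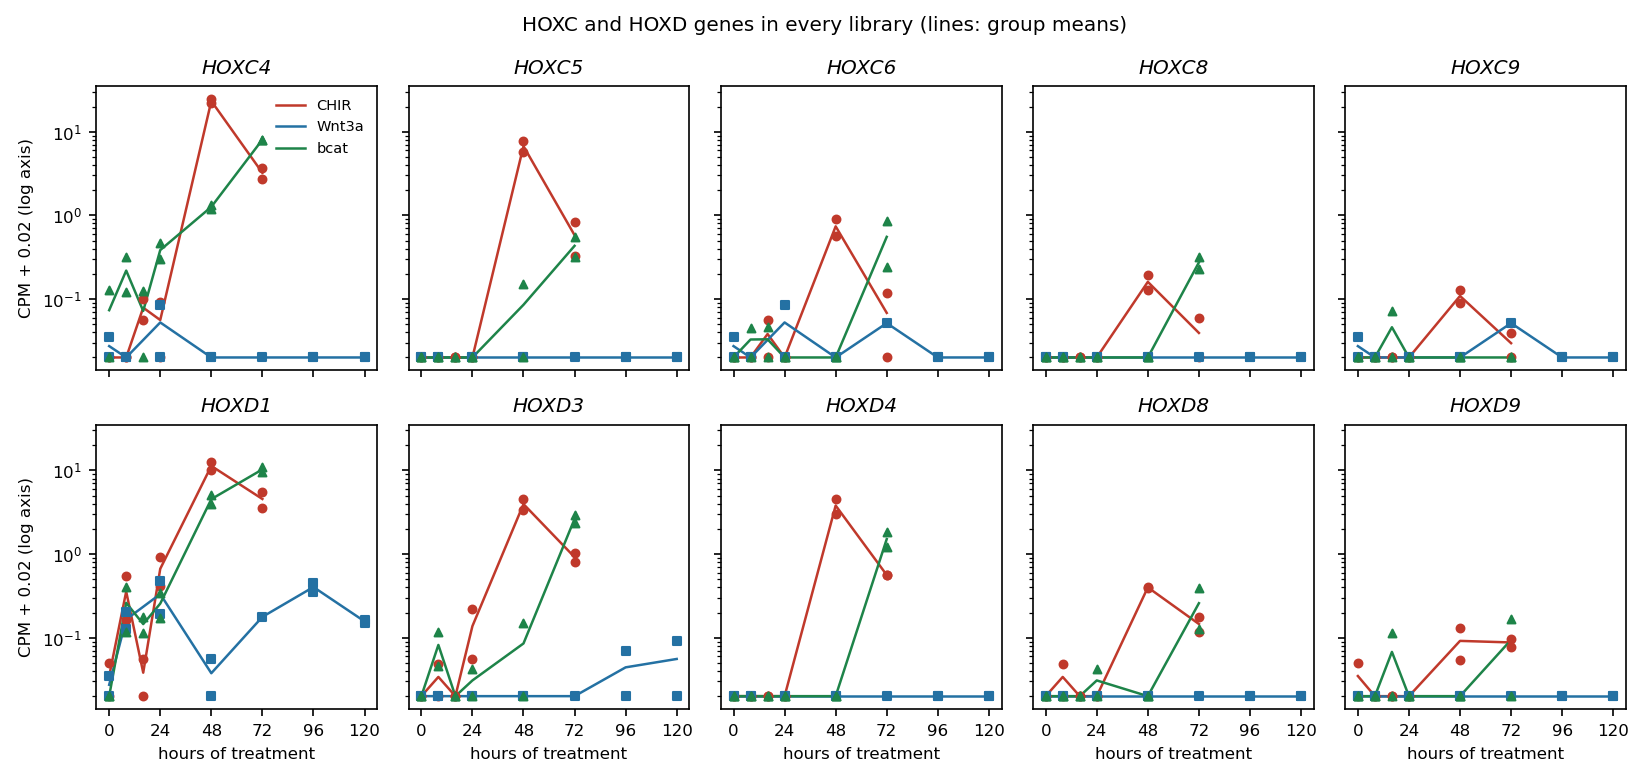
Level of each member in every library (CPM + 0.02, log axis) against hours of treatment, with lines through the group means; red circles are CHIR99021, blue squares Wnt3a and green triangles bcat. HOXC4 and HOXD1 reach 10 CPM or more with CHIR99021 at 48 h, the bcat values of the 6 tested members are highest at 72 h, and the Wnt3a points stay below 1 CPM in all 10 panels.

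HOXD1, the most 3′ gene of its cluster, was the earliest of the 10 with CHIR99021. It had 0 and 1 counts at 0 h, 19 and 3 counts at 8 h (0.530 and 0.142 CPM), 0 and 1 counts at 16 h, and 9 and 11 counts at 24 h (0.896 and 0.396 CPM). Both 8 h and both 24 h libraries lay above both 0 h libraries. HOXD1 was called higher than 0 h at 8 h (adjusted p = 0.00205, edgeR) and at 24 h (adjusted p = 5.28e-04). It was the single member of 6 called at each hour, where 9.20% of all genes were called higher at 8 h and 5.91% at 24 h. The 8 h call rests on r1, since without that library the adjusted p was 0.218. HAGLR, its antisense neighbour, had 0 counts at 0 h, then 12, 15 and 61 counts over both libraries at 8, 16 and 24 h. At 16 h edgeR and DESeq2 called no member, and none had an unadjusted p under 0.05.

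Between 24 and 48 h of CHIR99021 the tested genes of both clusters rose. No library was taken between these hours, so their order within that step cannot be read. HOXC4 went from 0 and 2 counts at 24 h to 717 and 402 at 48 h, or 24.6 and 21.9 CPM (mean 23.3 ± 1.96 SD, n = 2), at least 422-fold above its 0 h limit. HOXD1 went to 364 and 185 counts, or 12.5 and 10.1 CPM (11.3 ± 1.73), 620-fold over 0 h with a counting interval (exact, 95%) of 111 to 24552 from a base of 1 count. HOXC5, which had no count before 48 h in this arm, reached 167 and 141 counts (5.74 and 7.67 CPM), at least 116-fold. These 3 genes, with HOXD1 at the 3′ end of HOXD and HOXC4 and HOXC5 at the 3′ end of HOXC, held the highest levels of the set.

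HOXD3 and HOXD4 stood at a lower level at the same hour. HOXD3, a group 3 homeobox gene, had 2 and 1 counts at 24 h and 131 and 62 at 48 h (4.50 and 3.37 CPM), at least 72.7-fold over 0 h. HOXD4, with no count up to 24 h, had 133 and 55 at 48 h (4.57 and 2.99 CPM), at least 70.8-fold. HOXC6 had 26 and 10 counts at 48 h (0.894 and 0.544 CPM), at least 13.6-fold, and stayed below 1 CPM. For these 3 genes both 48 h libraries lay above every earlier library of the arm.

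All 6 tested members were called higher at 48 h than at 0 h, with adjusted p from 1.55e-12 for HOXC4 to 0.0013 for HOXC6 (edgeR), where 15.7% of all genes were called higher and 18.1% lower. All 6 were also called higher at 48 h than at 24 h, where 12.7% of genes were. Without CHIR99021 24 h r2 the HOXC6 step from 24 h was no longer called (log2 change 7.05). The calls against 0 h held without any 1 library, but DESeq2 called HOXC4, HOXD1 and HOXD3, gave adjusted p of 0.439 for HOXC5 and 0.275 for HOXD4 and none for HOXC6. For the genes with counts at 24 h the fitted log2 step from 24 to 48 h was 4.29 ± 0.48 for HOXD1, 5.46 ± 0.78 for HOXD3 and 8.66 ± 0.58 for HOXC4. With this, 5 members (not HOXC6) stood at 1 CPM or more in every library of an hour for the first time, and all 5 did so at 48 h. Fewer cells with a transcript and less RNA per cell cannot be told apart in these bulk libraries.

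The 4 remaining genes, further 5′, were barely present at that hour. HOXD8 had 11 and 7 counts (0.378 and 0.381 CPM), at least 6.78-fold over the 0 h limit. HOXC8 had 5 and 2 counts, HOXC9 had 2 in each library, and HOXD9 had 1 and 2. Together these 4 genes made up 1.22% of the counts of all 10 members in r1 (95% exact binomial interval 0.736 to 1.90) and 1.498% in r2 (0.7998 to 2.55). Intervals and limits cover counting error only.

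Among the 10 members, levels per length followed the order along the clusters apart from 1 neighbouring pair. At 48 h of CHIR99021 HOXC4 stood at 13.96 ± 1.18 CPM per kb of its longest transcript, HOXC5 at 3.71 ± 0.76, HOXC6 at 0.244 ± 0.084, HOXC8 at 0.0743 ± 0.024 and HOXC9 at 0.0586 ± 0.019. The last 2 values lay within their spread of each other. In HOXD the levels were 5.72 ± 0.88 CPM per kb for HOXD1, 1.65 ± 0.33 for HOXD3, 2.58 ± 0.76 for HOXD4, 0.198 ± 0.001 for HOXD8 and 0.0383 ± 0.028 for HOXD9. HOXD4 stood above HOXD3, by less than the sum of their SDs. HOXD13, the most 5′ gene of HOXD, stood at 0.0460 ± 0.065 CPM per kb, within its spread of HOXD9, and HOXC13 had no count at that hour. HOXC10, HOXC11, HOXC12 and HOXD11 were absent from the gene symbols of the data, so their levels cannot be read here.

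**Figure D2:**
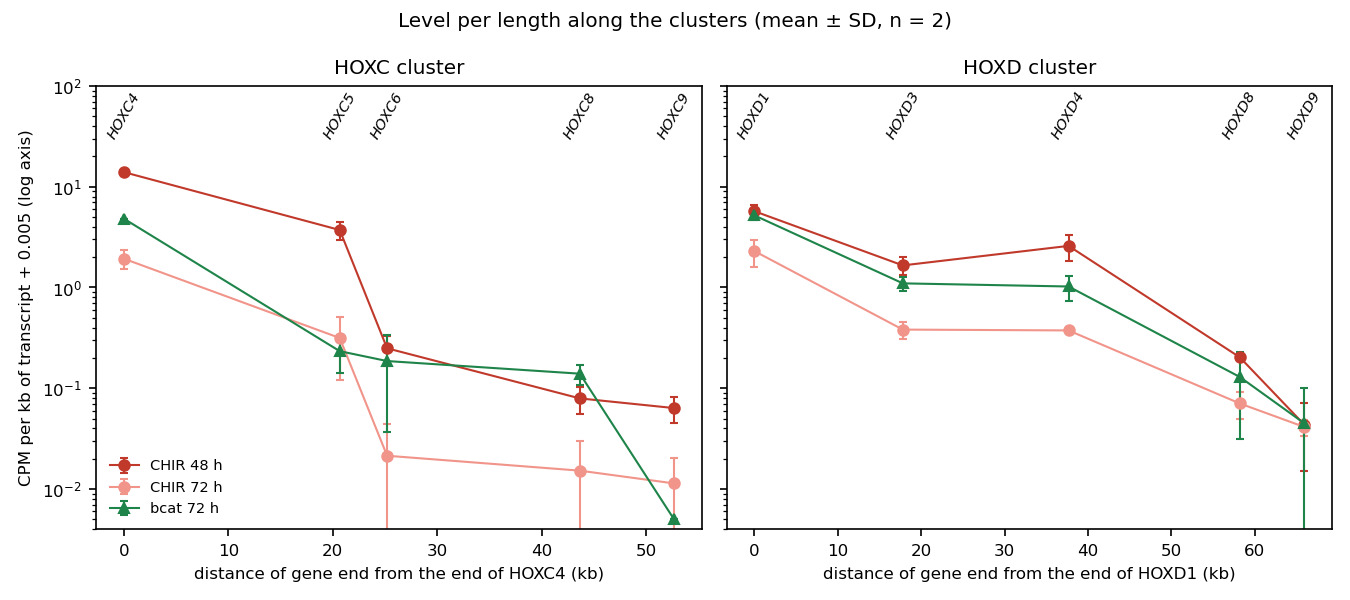
Level per kb of transcript (CPM per kb + 0.005, log axis; mean ± SD, n = 2 libraries) against the distance in kb of each gene's end from the end of the 3′-most gene, for CHIR99021 at 48 h and 72 h and bcat at 72 h. HOXC4 (13.96 CPM per kb) and HOXD1 (5.72) lead their clusters at 48 h of CHIR99021, HOXC8, HOXC9, HOXD8 and HOXD9 lie below 0.3 in the 3 groups, and the bcat point of HOXC9 is a count of 0.

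By 72 h of CHIR99021 every tested member had fallen. HOXC4 dropped to 192 and 35 counts, or 3.70 and 2.71 CPM (mean 3.21 ± 0.70), a 6.72-fold lower level than at 48 h (counting interval 5.82 to 7.79). HOXC5 stood at 0.810 and 0.310 CPM, 9.13-fold lower (6.68 to 12.7), and HOXD4 at 0.540 and 0.543 CPM, 7.33-fold lower (5.09 to 10.8). HOXD3 stood at 1.02 and 0.776 CPM, 4.18-fold lower (3.13 to 5.64). HOXD1 fell least, to 5.50 and 3.57 CPM, 2.26-fold lower (1.97 to 2.60). For each of these 5 genes both 72 h libraries lay below both 48 h libraries.

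The fall was called for all 6, with log2 changes of -2.83 ± 0.35 for HOXC4 (adjusted p = 3.12e-06), -3.42 ± 0.58 for HOXC5 (7.58e-04), -3.28 ± 1.03 for HOXC6 (0.0398), -1.29 ± 0.38 for HOXD1 (0.0195), -2.09 ± 0.55 for HOXD3 (0.0125) and -2.80 ± 0.58 for HOXD4 (0.00404; edgeR). Over all genes 5.49% were called lower and 7.51% higher at this step. HOXC4 and HOXC5 kept the call without any 1 library, but 5 members were called without CHIR99021 48 h r2, 3 without 72 h r1, 3 without 72 h r2 and 2 without 48 h r1. DESeq2 called HOXC4, gave an adjusted p of 0.0521 for HOXD1 and none for the other 4, and edgeR called 3 of 6 on the deposited values taken as they are. At 72 h 5 members were still called above 0 h (11.5% of all genes were), with HOXC4 at least 62.7-fold and HOXC5 at least 12.7-fold over the 0 h limit, and HOXC6 with 5 and 0 counts was not. DESeq2 called 3 of them, with adjusted p of 0.677 for HOXC5 and 0.518 for HOXD4. HOXD8 had 5 and 2 counts at 72 h and HOXD9 had 3 and 1.

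In bcat cells HOXC4 and HOXD1 reached 1 CPM in every library at 48 h, while HOXD3 and HOXD4 did so later, at 72 h. With CHIR99021 these genes did so at 48 h. In bcat HOXC4 passed 1 CPM narrowly at 48 h, and at a level of 2 CPM its first hour was 72 h. The 6 tested members all had their highest bcat mean at 72 h. HOXC4 was at low counts from the start, with 0 and 1 at 0 h, 4 and 3 at 8 h, 4 and 0 at 16 h, and 7 and 13 at 24 h (0.448 and 0.282 CPM). It then had 23 and 9 counts at 48 h (1.31 and 1.18 CPM) and 108 and 76 at 72 h (8.02 and 8.01 CPM), 102-fold over 0 h (18.1 to 4059). HOXD1 had no count at 0 h, at most 15 in a library up to 24 h, 69 and 39 at 48 h (3.93 and 5.10 CPM) and 147 and 91 at 72 h (10.9 and 9.60 CPM), at least 44.1-fold over 0 h. The 2 bcat 72 h libraries of HOXC4 stood above every other bcat library, as did those of HOXD1.

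HOXD3 and HOXD4 were essentially off in bcat at 48 h and on at 72 h. HOXD3 had 0 and 1 counts at 48 h and 39 and 22 at 72 h (2.90 and 2.32 CPM), 67.0-fold more (11.6 to 2689). HOXD4 had none at 48 h and 16 and 17 at 72 h (1.19 and 1.79 CPM), at least 12.1-fold more. HOXC5 reached 4 and 5 counts at 72 h (0.297 and 0.527 CPM) and HOXC6 3 and 8. The first hour with 1 CPM or more in every library was thus 48 h for HOXC4 and HOXD1 and 72 h for HOXD3 and HOXD4. HOXC8 had 4 and 2 counts at 72 h, HOXD8 had 5 and 1, HOXD9 had 2 and 0, and HOXC9 had none, a limit of 0.131 CPM.

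Against bcat 0 h, edgeR called HOXC4 (adjusted p = 0.00223) and HOXD1 (1.31e-06) higher at 48 h, 2 of 6 members beside 11.1% of all genes. At 72 h it called HOXC4, HOXD1, HOXD3 and HOXD4, 4 of 6 beside 13.6%. The HOXD4 call was lost without bcat 0 h r2 (adjusted p = 0.0609) and by DESeq2 (0.552). At 8, 16 and 24 h edgeR and DESeq2 called none of the 6, with 1, 0 and 1 at an unadjusted p under 0.05. From 24 to 48 h HOXC4 (log2 change 1.88 ± 0.48, adjusted p = 0.0129) and HOXD1 (4.41 ± 0.52, 5.38e-07) rose, where 4.64% of genes did. The HOXC4 step was lost without the 4 doubted libraries (adjusted p = 0.054), without bcat 24 h r2 (0.237) or without bcat 48 h r1 (0.137). From 48 to 72 h HOXC4 (2.67 ± 0.40, 1.27e-04), HOXD3 (5.82 ± 0.96, 5.12e-04) and HOXD4 (8.07 ± 1.40, 0.0026) rose, where 2.72% of genes did, and HOXD1 had an adjusted p of 0.0683. DESeq2 called HOXC4 at that step and gave no adjusted p for HOXD3 and HOXD4, and without bcat 48 h r1 edgeR no longer called HOXD4 (adjusted p = 0.0596).

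**Figure D3:**
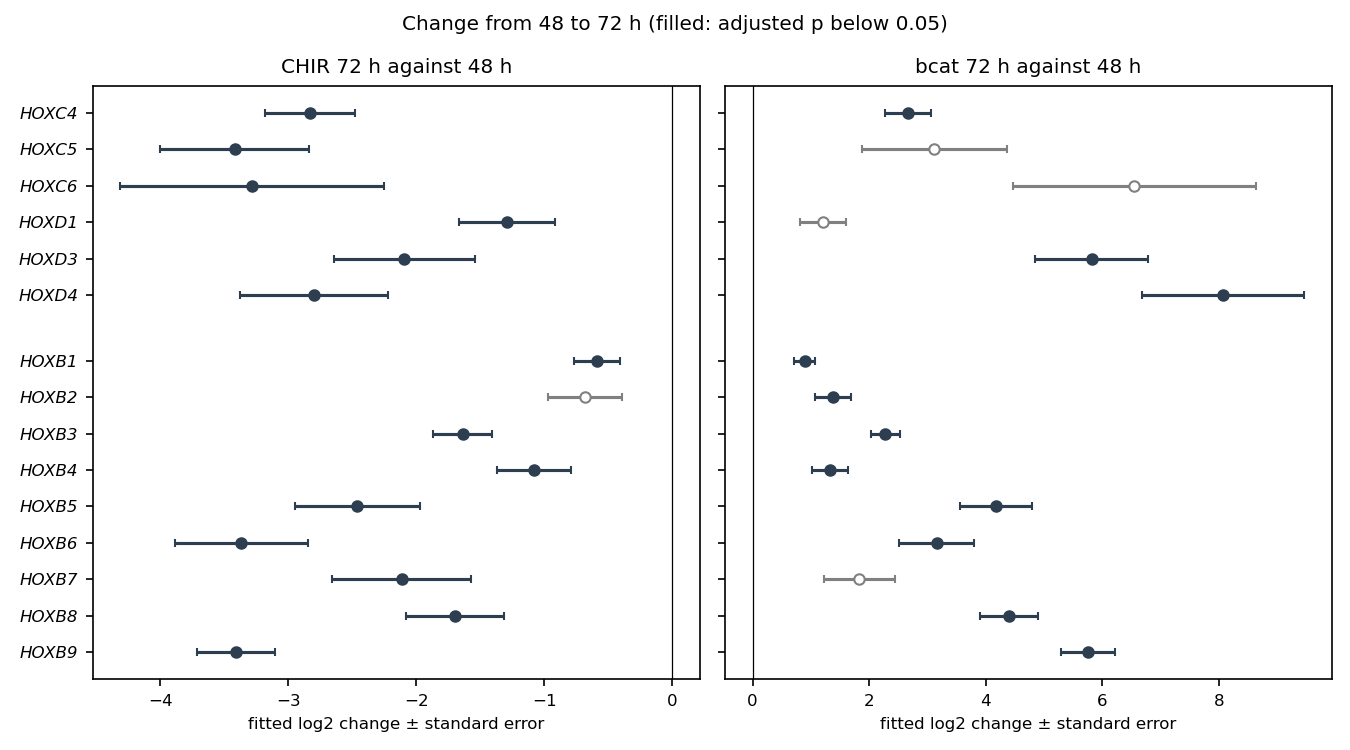
Fitted log2 change from 48 to 72 h (± standard error) of the 6 tested members and the tested HOXB genes, with CHIR99021 on the left and bcat on the right; filled points have an adjusted p below 0.05. The members lie left of 0 with CHIR99021, from -1.29 (HOXD1) to -3.42 (HOXC5), and right of 0 in bcat, where HOXC4, HOXD3 and HOXD4 are filled.

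Wnt3a left both clusters near background up to 120 h, with the exception of a low HOXD1 signal. Over its 13 libraries HOXC5, HOXC8, HOXD4, HOXD8 and HOXD9 had no count at all, HOXC4, HOXC9 and HOXD3 had 2 counts each and HOXC6 had 3. HOXD1 had 47. Its counts were 0 and 1 at 0 h, 4 and 5 at 8 h, 7 and 4 at 24 h (0.454 and 0.171 CPM), 0 and 1 at 48 h, 5 in the 1 library of 72 h, 9 and 7 at 96 h (0.436 and 0.331 CPM) and 2 and 2 at 120 h. The highest Wnt3a library of HOXD1 lay below both 48 h and both 72 h libraries of the other arms.

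edgeR called HOXD1 higher than 0 h at 24 h (adjusted p = 0.0054, beside 9.32% of all genes) and at 96 h (5.34e-04, beside 18.8%), and lower at 48 h than at 24 h (log2 change -3.22 ± 1.06, adjusted p = 0.032, beside 8.96%). Neither call against 0 h held without Wnt3a 0 h r2 (adjusted p = 0.455 and 0.288), the 24 h call was also lost without Wnt3a 24 h r1 (0.0849), and the fall at 48 h was lost without either 48 h library, without 24 h r1 and by DESeq2 (0.0596). At those 2 hours the median change of 679 lincRNA genes stood above that of 15905 protein-coding genes by 0.531 (24 h) and 0.736 (96 h) on the log2 scale, against 0.379 or less at the other hours of the 3 arms; its part in the HOXD1 calls was not tested. AXIN2 was not called higher at those 2 hours of Wnt3a. It stood at 12.7 ± 0.0345 CPM at 24 h, called lower than 0 h (log2 change -0.71 ± 0.21, adjusted p = 0.017, edgeR), and at 17.3 ± 0.895 CPM at 96 h (adjusted p = 0.338). At 120 h, where 12.2% of genes were called higher than 0 h, edgeR and DESeq2 called none of the 6, with 1 at an unadjusted p under 0.05.

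Compared at the same hour, CHIR99021 led both other arms at 48 h and stood behind bcat for 2 genes at 72 h. At 48 h all 6 tested members were higher with CHIR99021 than with Wnt3a (17.7% of all genes were), HOXC4 by at least 295-fold, HOXC5 by at least 81.3-fold and HOXD1 by 435-fold (77.7 to 17194). All 6 were also higher than in bcat at 48 h (15.2% of all genes were), by 163-fold at HOXC5 (29.1 to 6478), 18.6-fold at HOXC4 (13.1 to 27.3) and, least of the 6, 2.70-fold at HOXD1 (2.19 to 3.35; log2 difference 1.34 ± 0.39, adjusted p = 0.00884). At 72 h 5 members (not HOXC6) were higher than with Wnt3a (9.87% of genes were). At that hour HOXC4 (log2 difference -1.29 ± 0.35, adjusted p = 0.00954) and HOXD1 (-1.15 ± 0.38, 0.0317) were lower with CHIR99021 than in bcat (8.43% of genes were), while HOXD3 (-1.50 ± 0.56, 0.068), HOXD4 (-1.44 ± 0.60, 0.118), HOXC6 (-2.78 ± 1.11, 0.0891) and HOXC5 (0.63 ± 0.72, 0.615) did not pass. These direct comparisons of levels were added after the data were seen, because changes measured from 0 counts are imprecise. They were not checked with DESeq2 or by leaving out libraries. Without the low-count filter HOXD1 no longer passed between CHIR99021 and bcat at 72 h (adjusted p = 0.0511, edgeR).

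Before the main rise HOXC4 was the gene that set bcat apart. At 24 h it was lower with CHIR99021 than in bcat (log2 difference -2.57 ± 0.80, adjusted p = 0.0273), with 2 counts against 20, each summed over 2 libraries. Over all genes 8.92% were lower with CHIR99021 than in bcat at that hour. Against bcat, Wnt3a was also lower for HOXC4 and HOXD1 at 48 h (15.2% of all genes were) and for 5 members, not HOXC6, at 72 h (12.3%). As differences between changes from 0 h, fewer calls were made: HOXC4 and HOXD1 for CHIR99021 over Wnt3a at 48 h (6.75% of genes), HOXC4 for the same pair at 72 h (3.73%), and HOXC4 for CHIR99021 over bcat at 48 h (5.97%). This test could not call HOXC5, HOXD3 or HOXD4, which had no count at 0 h in any arm. For CHIR99021 minus Wnt3a at 48 h their standard errors were 20068.7, 25694.9 and 18218.5. The calls therefore do not set HOXC4 and HOXD1 apart from these genes. Levels and changes differed in sign between CHIR99021 and bcat, where the change was not called, for HOXC4 at 24 h (difference of changes 1.35 ± 1.24) and 72 h (2.63 ± 1.65) and for HOXD1 at 24 h (-0.67 ± 1.57) and 48 h (-0.78 ± 1.76).

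The 3 arms share no libraries, so the peak of CHIR99021 and the last hour of bcat can be set side by side. CHIR99021 at 48 h held 2.94-fold more HOXC4 than bcat at 72 h, 16.5-fold more HOXC5 (8.60 to 36.5), 2.75-fold more HOXD4, 1.53-fold more HOXD3 and 1.11-fold more HOXD1 (0.956 to 1.30). Of these 5 genes HOXC5 showed the widest gap and HOXD1 the narrowest. The hours differ, and no test was made.

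The balance between the genes moved with time and arm. HOXC4 made up 66.3% of the counts of HOXC4 and HOXD1 in CHIR99021 48 h r1 (exact 95% interval 63.4 to 69.1) and 68.5% in r2 (64.6 to 72.2), but 40.3% (35.8 to 44.8) and 43.2% (32.2 to 54.7) at 72 h. In bcat it made up 25.0% (16.6 to 35.1) and 18.8% (8.95 to 32.6) at 48 h and 42.4% (36.2 to 48.7) and 45.5% (37.8 to 53.4) at 72 h. Both CHIR99021 48 h libraries thus lay above the other 48 and 72 h libraries, and the 72 h libraries of the 2 arms overlapped. Earlier in bcat, at 24 h, HOXC4 made up 65.0% (40.8 to 84.6) of 20 counts in r2 and 62.5% (43.7 to 78.9) over both libraries, intervals that hold the CHIR99021 48 h values. HOXC5 made up 18.9% (16.4 to 21.6) and 26.0% (22.3 to 29.9) of HOXC4 and HOXC5 counts in CHIR99021 at 48 h, against 3.57% (0.982 to 8.89) and 6.17% (2.03 to 13.8) in bcat at 72 h. HOXD1 made up 100% and 97.5% of HOXD1, HOXD3 and HOXD4 counts in bcat at 48 h and 72.8% (66.1 to 78.8) in r1 at 72 h, where the interval of r2 was 61.3 to 77.7, against 58.0% and 61.3% in CHIR99021 at 48 h and 77.9% and 73.0% at 72 h.

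**Figure D4:**
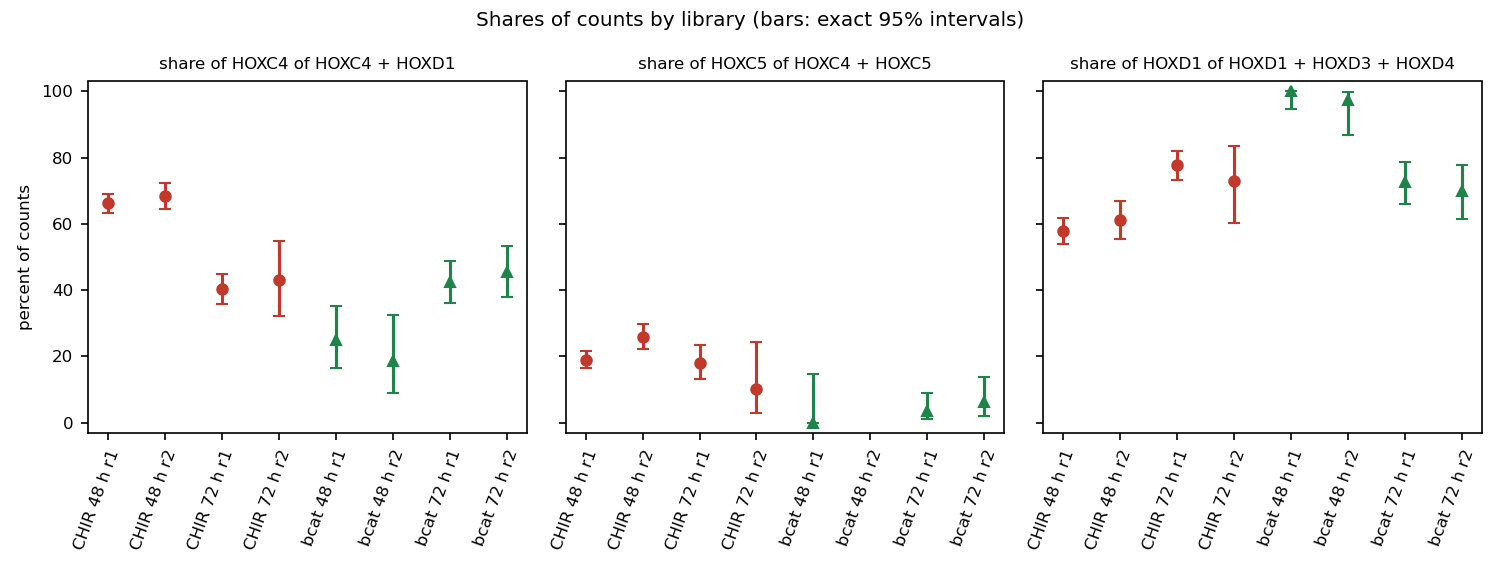
Percent of counts in the 48 and 72 h libraries with exact 95% binomial intervals, for HOXC4 of HOXC4 and HOXD1, HOXC5 of HOXC4 and HOXC5, and HOXD1 of HOXD1, HOXD3 and HOXD4; circles are CHIR99021 and triangles bcat, and a library with under 20 counts has no point. HOXC4 is the larger share at 48 h of CHIR99021 (66.3% and 68.5%) and the smaller share in the other 6 libraries plotted, and HOXD1 makes up nearly all counts of its 3 genes in bcat at 48 h.

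A noncoding transcript lies at the 3′ end of each cluster, and both were measured in every library. HAGLR had no count at CHIR99021 0 h, 1663 at 48 h over both libraries (34.6 ± 2.82 CPM, at least 627-fold) and 17.2 ± 2.94 CPM at 72 h, a step that was not called (log2 change -0.9997 ± 0.476, adjusted p = 0.202). In bcat it stood at 10.4 ± 1.37 CPM at 48 h and 27.8 ± 4.45 at 72 h. HOXD1 made up 25.5% and 23.6% of HOXD1 and HAGLR counts in CHIR99021 at 48 h and 22.2% and 19.1% at 72 h. In bcat it made up 25.7% and 35.1% (26.3 to 44.8) at 48 h and 26.1% and 28.0% at 72 h. At these 2 hours the bcat libraries lay above all 4 of CHIR99021. The nearest did so by less than their intervals (20.6 to 31.4 in bcat 48 h r1, 23.2 to 27.8 in CHIR99021 48 h r1). At 8 h, over both libraries, the order was the other way. HOXD1 made up 64.7% (46.5 to 80.3) of 34 counts with CHIR99021, 31 of them in r1, and 26.7% (16.1 to 39.7) in bcat. At 24 h the summed shares were 24.7% (15.8 to 35.5) and 22.2% (12.0 to 35.6). FLJ12825, a lincRNA just beyond the 3′ end of HOXC4 on the same strand (chr12:54058254-54122234), went from 0.172 ± 0.039 CPM at 24 h of CHIR99021 to 47.3 ± 2.25 at 48 h and 5.92 ± 1.13 at 72 h (log2 change from 48 h -2.98 ± 0.33, adjusted p = 1.36e-07). In bcat FLJ12825 stood at 11.1 ± 3.27 CPM at 72 h. Of the 11 listed noncoding RNAs of the clusters 3 were tested, and all 3 (HAGLR, FLJ12825, HAGLROS) were called higher at 48 h of CHIR99021.

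Some genes flanking the clusters also rose. Of 8 tested around HOXC, 2 were higher and none lower at 48 h of CHIR99021 (median log2 change 0.08), with ATF7 the larger (0.77 ± 0.22, adjusted p = 0.00735). Of 5 tested around HOXD, 2 were higher and 1 lower (median 0.30), with LNPK the largest (1.13 ± 0.22, 1.67e-04). Over all genes 15.7% were called higher and 18.1% lower.

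The HOXA and HOXB clusters, whose genes are the paralogs of the members, were also on at 48 h of CHIR99021, and HOXA was detected earlier. The HOXA genes summed to 13.2 to 14.1 CPM at 24 h of CHIR99021, beside 0.505 to 1.10 for the members and 1.69 to 2.27 for HOXB. At 24 h of bcat HOXA summed to 26.3 to 45.6 CPM, beside 0.477 to 0.767 for the members and 2.88 to 4.03 for HOXB. At 48 h of CHIR99021, 7 of 8 tested HOXA genes and 9 of 9 tested HOXB genes were called higher than 0 h, beside 15.7% of all genes. Per length HOXB1, a group 1 paralog, stood at 45.1 CPM per kb against 5.72 for HOXD1. In group 4 at that hour, HOXC4 (13.96 ± 1.18 CPM per kb) was the highest per length, above HOXB4 (8.48 ± 0.38), HOXD4 (2.58 ± 0.76) and HOXA4 (1.54 ± 0.24). Its lead over HOXB4 rests on the transcript lengths, 1.666 kb for HOXC4 and 3.757 kb for HOXB4, and in CPM HOXB4 stood higher. At 72 h of CHIR99021 HOXB4 led HOXC4 per kb (3.996 ± 0.687 against 1.93 ± 0.42). At 72 h of bcat HOXC4 led (4.81 ± 0.0035 against 4.06 ± 0.60). The split of reads between HOXC4 and HOXC6 also leaves the HOXC4 level uncertain. In group 9 the order at 48 h of CHIR99021 was HOXB9 at 64.7 CPM per kb and HOXC9, HOXD9 and HOXA9 at 0.0586, 0.0383 and 0.025. From 48 to 72 h of CHIR99021, 8 of 9 HOXB genes fell and none rose, while 2 of 8 HOXA genes fell (HOXA6 and HOXA7) and 1 rose. Of all genes 5.49% fell and 7.51% rose at that step. In bcat over the same hours 8 of 9 HOXB genes and 2 of 8 HOXA genes rose and none fell, beside 2.72% of all genes that rose and 3.46% that fell.

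The CDX genes encode homeobox activators of HOX clusters. All 5 listed posterior homeobox genes were called higher at 48 h of CHIR99021, among them CDX1 (242 ± 44.0 CPM), CDX2 (131 ± 14.3), EVX1 (44.2 ± 1.09) and GBX2 (57.8 ± 6.53). CDX2 had no count at 0 h of CHIR99021 or bcat and stood at 9.02 ± 0.59 CPM at 8 h of CHIR99021, the hour of the first HOXD1 call. It stood at 47.3 CPM at 24 h of CHIR99021 and 39.3 CPM at 24 h of bcat, and had not fallen at 72 h (201 CPM). CDX4 ran from 1.91 CPM at 24 h to 62.4 ± 8.61 at 48 h and 9.20 at 72 h of CHIR99021, and from 3.24 CPM at 48 h to 31.0 ± 5.04 at 72 h of bcat. ALDH1A2, which makes retinoic acid, stood at 102 ± 7.44 CPM at 48 h and 21.9 at 72 h of CHIR99021, and at 3.39 CPM at 48 h and 45.1 ± 12.7 at 72 h of bcat. Of 17 genes of retinoic acid synthesis, breakdown and receptors, 7 were higher and 5 lower at 48 h of CHIR99021, the lower ones including ALDH1A1 and CYP26A1, which breaks retinoic acid down. Of all genes 15.7% were called higher and 18.1% lower at that hour.

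Genes for HOX partners and chromatin regulators were called in both directions. Over all genes 15.7% were called higher and 18.1% lower at 48 h of CHIR99021. Of 9 PBX, MEIS and PKNOX genes, which encode DNA-binding partners of HOX proteins, 3 were higher and 4 lower at 48 h of CHIR99021, with MEIS1 (log2 change 4.73 ± 0.55) and MEIS2 (3.79 ± 0.40) up and PBX3 (-2.21 ± 0.18) down. Of 20 Polycomb genes 3 were higher and 8 lower, led by CBX7 (-3.97 ± 0.45), PHC1 (-2.75 ± 0.14) and PHC2 (2.74 ± 0.16). Of 11 trithorax and H3K27 demethylase genes 2 were higher and 2 lower, including KDM6B (1.42 ± 0.46) and KDM6A (-1.42 ± 0.24). These counts, and that of the higher Polycomb genes, were near the shares over all genes.

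**Figure D5:**
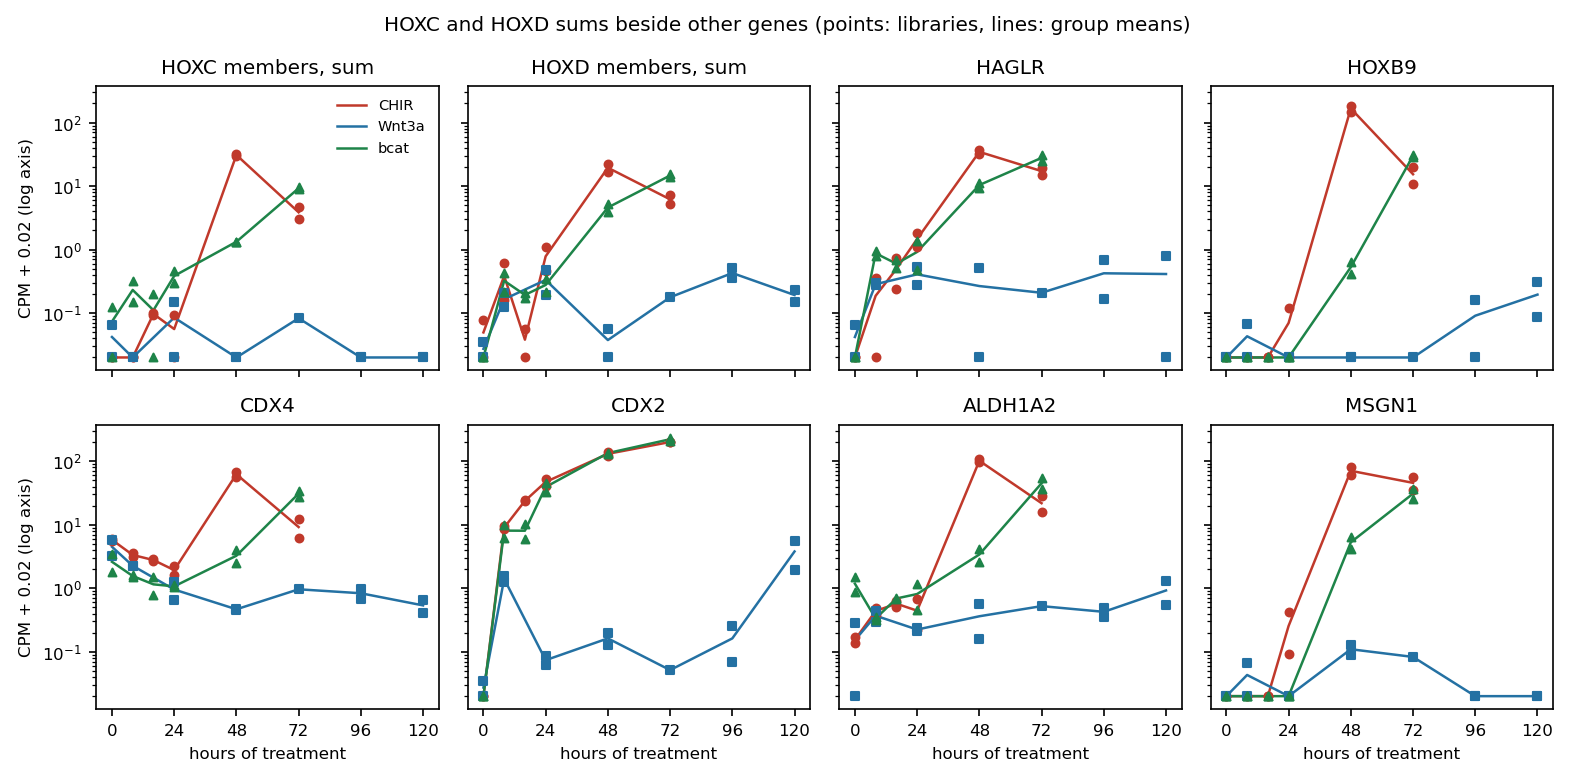
Summed level of the 5 HOXC and the 5 HOXD members, and levels of HAGLR, HOXB9, CDX4, CDX2, ALDH1A2 and MSGN1 (CPM + 0.02, log axis), in every library against hours of treatment; red circles are CHIR99021, blue squares Wnt3a, green triangles bcat, and lines join group means. HOXB9, CDX4 and ALDH1A2 peak at 48 h of CHIR99021 and stand highest at 72 h within bcat, as the members do, while CDX2 keeps rising to 72 h in both.

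Markers of cell types moved over the same hours. The 15 primed pluripotency genes summed to 8079 to 8217 CPM at CHIR99021 0 h, 2322 to 2357 at 48 h and 3286 to 3331 at 72 h, with 14 of 15 called lower at 48 h than at 0 h and 9 of 15 called higher at 72 h than at 48 h. In bcat the same sum was 4695 to 4713 CPM at 48 h and 2907 to 3275 at 72 h, with 11 of 15 called lower at that step (3.46% of all genes were). The 15 presomitic and somitic mesoderm genes summed to 38.9 to 41.8 CPM at CHIR99021 0 h, 490 to 603 at 48 h and 197 to 305 at 72 h, with RIPPLY1 at 0 counts at each of these hours. In bcat they summed to 58.7 to 66.2 CPM at 48 h and 197 to 236 at 72 h. The 10 members together summed to 47.2 to 53.5 CPM at 48 h of CHIR99021, 8.14 to 11.9 at 72 h and 23.4 to 24.4 in bcat at 72 h. The part of these cell type shifts in the levels of the members was not tested.

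Of other lineages, the 9 definitive endoderm genes summed to 241 to 273 CPM at 48 h of CHIR99021, with SOX17, CER1 and TTR at 0 counts, and to 196 to 301 CPM at 120 h of Wnt3a, where none was at 0. The 11 lateral plate and cardiac mesoderm genes summed to 20.9 to 29.8 CPM at 48 h of CHIR99021, with TBX5 and ISL1 at 0, and to 116 to 122 CPM at 120 h of Wnt3a. The 14 neural ectoderm genes summed to 117 to 121 CPM at 0 h and 216 to 292 CPM at 48 h of CHIR99021, with PAX6 at 0. At 120 h of Wnt3a the members together had 2 counts of HOXD1 in each library and 1 of HOXD3.

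The genes whose course was most like that of a member were sought outside the HOX clusters among 16344 genes, by Pearson's r of log2(CPM + 1) over the 19 group means. Group means share arms and a common 0 h near 0, so r is given as a description only. The closest to HOXC4 were WISP1 (r = 0.985), ALDH1A2 (0.981) and TRGC2 (0.972). The closest to HOXC5 were LINC00434 (0.999), ZBED2 (0.995) and KRT38 (0.993), each highest at 48 h of CHIR99021 and below 0.3 CPM in bcat at 72 h. For HOXD1 they were URAD (0.981), ZNF831 (0.968) and TSHZ1 (0.963), each of which stood higher in bcat at 72 h than with CHIR99021 at 48 h. The mean of the 5 HOXC members was closest to KRT2 (0.990), SPAG11A, KRT74, KRT71 and DEFB104B, and that of the 5 HOXD members to WISP1 (0.989), TRGC2, ALDH1A2, ZNF831 and FOXF1. SPAG11A and DEFB104B belong to a multicopy gene family, so their counts are uncertain.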

How the data were processed

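The deposited table holds estimated counts per gene symbol, made by the authors with kallisto 0.43.0 per the submitters' processing notes; build, annotation and strand setting: not given in the sources used here. Each column of deposited estimated counts was found to be multiplied by 1 constant (0.265 to 6.58), and after division 57.5% to 81.4% of the values of 20 counts or fewer were whole to within 0.1. The quotients were rounded to whole counts. A low-count filter (edgeR's filterByExpr) left 24304 genes, and 27 symbols altered to dates were left as they stand. TMM scaling and edgeR 4.0.16 quasi-likelihood tests (R 4.3.3) were run on 19 group means in 1 fit; standard errors are the change over the root of F. Exact intervals came from scipy 1.17.1. The fit was tested on simulated data. Alternatives were DESeq2 1.42.0 with its size factors and Wald test, no filter, undivided values, other sets of libraries, other p adjustment and a replicate block. The members, the gene lists and the rules for genes named (all members, and from each list up to 4 with the largest change past the threshold) were chosen with earlier results of these data known. CDX and HAGLR genes, FLJ12825 and group paralogs were also named after their values were seen, and some genes of the lists are not reported here by name. Same-numbered libraries did not deviate together, so no pairing was used in the main fit.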

Additional observations from a re-analysis of the deposited data

Results flagged for a closer look

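The change from 0 h differed between arms for HOXC4 and HOXD1 by edgeR's test of the difference itself. That test could not call HOXC5, HOXD3 or HOXD4, which had no count at 0 h in any arm. HOXC4 rose more with CHIR99021 than with Wnt3a at 48 h (difference of log2 changes 13.87 ± 3.16, adjusted p = 0.00279) and at 72 h (11.04 ± 2.98, 0.0179), and more with CHIR99021 than in bcat at 48 h (8.12 ± 2.43, 0.0242). HOXD1 rose more with CHIR99021 than with Wnt3a at 48 h (8.17 ± 2.75, 0.0402). All 4 sizes are fitted from 0 h groups with 0 or 1 counts a library and depend on how the fit treats those, so they are no measure of fold. The HOXC4 difference from Wnt3a lost its call at both hours without Wnt3a 0 h r2, the difference of HOXC4 from bcat without CHIR99021 0 h r2 or bcat 0 h r2, and HOXD1 under 5 of 8 libraries left out.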

How the results depend on the processing

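Counts of members called are given for 35 comparisons and single calls for 43. None of the 43 calls reversed in direction under any alternative run. With DESeq2 size factors or with a replicate block (labels' replicate numbers) each of the 35 counts stayed within 1.5 times its main value and all 43 calls were kept; same-numbered libraries of 2 groups correlated by a median of 0.00554 (lowest -0.125, highest 0.153) over 153 pairs of groups, with 3 above 0.1, so the numbers do not pair libraries and the block adds nothing to the results. DESeq2's Wald test kept 26 of 43 calls, lost 9 and gave no adjusted p for 8. It called 3 members in place of 6 at CHIR99021 48 h against 0 h, 3 in place of 5 at 72 h against 0 h, 3 in place of 6 at 48 against 24 h, 1 in place of 6 at 72 against 48 h, 0 in place of 1 at Wnt3a 48 against 24 h, 1 in place of 3 at bcat 72 against 48 h, and 1 and 2 in place of 0 for Wnt3a minus bcat at 48 and 72 h. The deposited values without division gave 1 in place of 0 at Wnt3a 120 h, 1 in place of 0 at bcat 8 h, 2 in place of 0 at bcat 24 h, 3 in place of 6 at CHIR99021 72 against 48 h, 1 in place of 2 at bcat 48 against 24 h, and 0 in place of 2 and 1 for CHIR99021 minus Wnt3a at 48 and 72 h. Adjusting over all comparisons gave 5 in place of 3 at bcat 72 against 48 h and 1 in place of 2 for CHIR99021 minus Wnt3a at 48 h, and the last count was also 1 with no filter and without the 4 doubted libraries, which also gave 1 in place of 2 at bcat 48 against 24 h. With only the libraries of the arms compared, Wnt3a 48 against 24 h had 0 in place of 1. Levels in place of changes gave, at 24, 48 and 72 h, 0, 6 and 5 for CHIR99021 against Wnt3a, 1, 6 and 2 for CHIR99021 against bcat and 1, 2 and 5 for Wnt3a against bcat. Of 54 member comparisons between arms, 5 changed sign between the uncalled difference of changes and the level: HOXC4 for CHIR99021 and bcat at 24 h (1.35 against -2.57) and 72 h (2.63 against -1.29), HOXD1 for the same pair at 24 h (-0.67 against 1.46) and 48 h (-0.78 against 1.34), and HOXD1 for Wnt3a and bcat at 24 h (-1.33 against 0.50). The causes were not tested. Leaving out 1 library (with the dispersion trend of the whole fit kept; a lone library is assumed to vary like the other groups) gave 2 to 5 members at CHIR99021 72 against 48 h, 0 to 1 at CHIR99021 8 h, Wnt3a 24 h and Wnt3a 96 h against 0 h, at Wnt3a 48 against 24 h, for CHIR99021 minus Wnt3a at 72 h, for CHIR99021 minus bcat at 48 h and at bcat 8 h, 0 to 2 for CHIR99021 minus Wnt3a at 48 h, 1 to 2 at bcat 48 against 24 h, 2 to 4 at bcat 72 against 48 h and 3 to 5 at bcat 72 h. Members at 1 CPM or more in every library of some hour numbered 5 with CHIR99021, 0 with Wnt3a and 4 in bcat, also with DESeq2 size factors; at 0.5 CPM they were 6, 0 and 4 and at 2 CPM 5, 0 and 3. Depth limits HOXC8, HOXC9, HOXD8 and HOXD9, whose highest library had 11 counts.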
